A study of Mus musculus with 4 samples.

Results

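Lymphatic endothelial cells of the mouse colon were picked out of droplet single-cell RNA sequencing of 2 libraries from mice given carbon tetrachloride (CCl4) and 2 libraries from control mice. CCl4 is a liver toxin that is used to bring on liver fibrosis in rodents. Per the labels, the CCl4 mice were 6 weeks old at the start and were treated for 6 weeks, while the control mice carry no age, duration or vehicle. The labels used here give no number of animals per library and do not state that replicate libraries are separate animals, so the p-values below measure the spread between libraries, which may be technical. A barcode was taken as a lymphatic endothelial cell when it had 200 or more genes, a mitochondrial share of 25% or less, a count in at least 3 of the 6 genes Lyve1, Prox1, Flt4, Mmrn1, Ccl21a and Reln, a count in at least 1 of the endothelial genes Pecam1, Cdh5 and Egfl7, and no count of the leukocyte gene Ptprc or the epithelial gene Epcam. The rule found 282 members among 38852 kept barcodes: 82 and 74 in the CCl4 libraries, and 68 and 58 in the control libraries.

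Lymphatic capillaries of the gut take up fluid, absorbed fat and migrating immune cells and carry them towards the lymph nodes. Their endothelium is set apart from that of blood vessels by the transcription factor Prox1, grows in response to the growth factors Vegfc and Vegfd through the receptor Flt4 (also called VEGFR3), and draws dendritic cells and lymphocytes with the chemokine Ccl21. In the intestine, lymphatic vessels also lie close to the crypts and secrete factors that act on the epithelium, among them Rspo3, an enhancer of Wnt signalling.

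The libraries held between 55834301 and 92383719 counts in 10021 to 13986 barcodes, and every barcode had over 1000 counts. The members' counts summed to 391931 and 313450 in the CCl4 libraries and to 290206 and 269628 in the control libraries, and the median member held 4070 and 2655 counts in the CCl4 libraries, against 3980 and 2969 counts in the control libraries. The median mitochondrial share of the members' counts was 5.34% and 4.74% in the CCl4 libraries and 3.90% and 4.21% in the control libraries, so it was higher in both CCl4 libraries. Library 2 of each group had shallower members than library 1. Any 2 libraries shared 0 members with the same profile. Names of 13113 barcodes occurred in more than 1 library, which is the case by construction where barcodes are numbered within a library.

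All 6 lymphatic genes were carried by 105 members, 5 by 93, 4 by 59 and 3 by 25. The 25 members at the threshold were shallow, with a median of 1510 counts, against 4893 counts in the members with all 6 genes. A further 49 barcodes met every other condition but held only 2 of the 6 genes, and these had a median of 6319 counts, Flt1 at 2792 and Plvap at 3328 counts per 1000000 (CPM), and Lyve1 at only 50.5 CPM. The 25 members with exactly 3 genes held Flt1 at 294, Plvap at 272 and Lyve1 at 1361 CPM. Flt1 and Plvap are genes of blood vessel endothelium. Lyve1 is a gene of the rule, so its level follows in part from the choice. The fibroblast gene Dcn stood at 3495 CPM over the same 25 members, with 276 of its 321 counts in 1 of them.

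**Figure D1:**
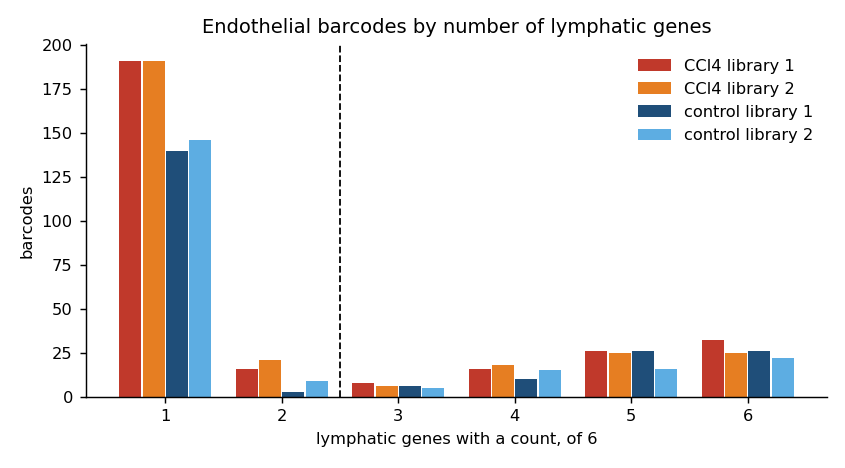
Number of barcodes (vertical axis) by the number of the 6 lymphatic genes with a count (horizontal axis), among barcodes that met the other conditions of the rule; bars are the 4 libraries and the dashed line is the threshold. In the 4 libraries together, 49 barcodes held 2 genes, 25 held 3 and 105 held all 6.

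The genes that chose the cells were high in all 4 libraries. Levels are CPM of all counts of the members in a library, not divided by gene length, so levels of different genes are not compared. Lyve1, a hyaluronan receptor, stood at 4399 and 3771 CPM in the CCl4 libraries and at 4376 and 3983 CPM in the control libraries. Mmrn1, a secreted multimerin, stood at 3712 and 3666 CPM in the CCl4 libraries and at 4466 and 3638 CPM in the control libraries. Ccl21a had 2898 and 2342 CPM in the CCl4 libraries and 3456 and 2852 CPM in the control libraries. These 3 genes were at most 23.4 CPM in blood endothelial cells, fibroblasts, epithelial cells and leukocytes of the same libraries. Flt4 lay at 760 and 791 CPM in the CCl4 libraries and 951 and 720 CPM in the control libraries. Reln, a secreted glycoprotein, lay at 804 and 734 CPM in the CCl4 libraries and 1027 and 898 CPM in the control libraries. Prox1 lay at 393 and 431 CPM in the CCl4 libraries and 355 and 497 CPM in the control libraries. The groups overlapped in every one of the 6 genes but Reln, which was lower in both CCl4 libraries, and none passed the test between CCl4 and control described below (lowest adjusted p of edgeR's quasi-likelihood test 0.851). Near-identical copies of Ccl21a exist in the mouse genome, so its level is uncertain by the reads that the counting may have assigned to them.

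The members also differed from blood endothelial cells in genes that the rule did not name. Blood endothelial cells were the 2537 kept barcodes with at least 2 of Pecam1, Cdh5 and Egfl7, a count of Flt1 or Plvap, at most 1 of the 6 lymphatic genes and no Ptprc or Epcam. Since both kinds of cell were chosen by their own transcripts, this contrast is a description without a test. Fgl2, a fibrinogen-like protein, was the gene outside the rule with the highest ratio: 3360 and 4077 CPM in the members of the CCl4 libraries and 4576 and 4287 CPM in those of the control libraries, against 23.4 to 45.6 CPM in blood endothelial cells. Lcn2, which binds bacterial iron carriers, had 438 to 613 CPM in the members and at most 1.17 CPM in blood endothelial cells. Thy1, a surface glycoprotein, had 1072 to 1210 CPM in the members and at most 17.9 CPM in blood endothelial cells. Podoplanin (Pdpn), the glycoprotein long used to stain lymphatic vessels, had 450 to 648 CPM in the members, against at most 16.8 CPM in blood endothelial cells. The transcription factor Maf had 572 to 699 CPM in the members, against at most 14.0 CPM in blood endothelial cells. The copper carrier and iron oxidase ceruloplasmin (Cp) had 855 to 1153 CPM in the members, against at most 15.1 CPM in blood endothelial cells. The peptide hormone gene Nts had 175 to 386 CPM in the members, against at most 0.584 CPM in blood endothelial cells. Among the 20 genes with the highest ratio were also Igfbp5, Pard6g, Dtx1, Gpm6a, Cyp4b1, Fxyd6, Slc45a3, Adgrg3, Prelp, Sema3d, Ntn1, Lbp and Ccdc146.

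In the other direction, Fabp4, a fatty acid binding protein of capillary endothelium, had 93.0 to 290 CPM in the members, against 5165 to 5779 CPM in blood endothelial cells. The co-receptor Nrp1 had 6.89 to 57.4 CPM in the members, against 745 to 913 CPM in blood endothelial cells. The tip cell gene Esm1 had 0 to 28.7 CPM in the members, against 321 to 447 CPM in blood endothelial cells. Kdr (VEGFR2) was found in both, with 600 to 820 CPM in the members and 1560 to 2046 CPM in blood endothelial cells. The tight junction gene Cldn5 had 731 to 899 CPM in the members, against 93.2 to 109 CPM in blood endothelial cells. In the members, Flt1 had 17.2 to 111 CPM and Plvap 62.0 to 220 CPM. The 6 lymphatic genes were used to choose the members and give the label no support of their own. Beside them stand the levels of Pdpn, Maf and Thy1, which the rule did not name. These genes were not confined to the members. Fibroblasts had Pdpn at 249 to 276 CPM, and leukocytes had Maf at 281 to 311 CPM and Thy1 at 113 to 185 CPM.

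**Figure D2:**
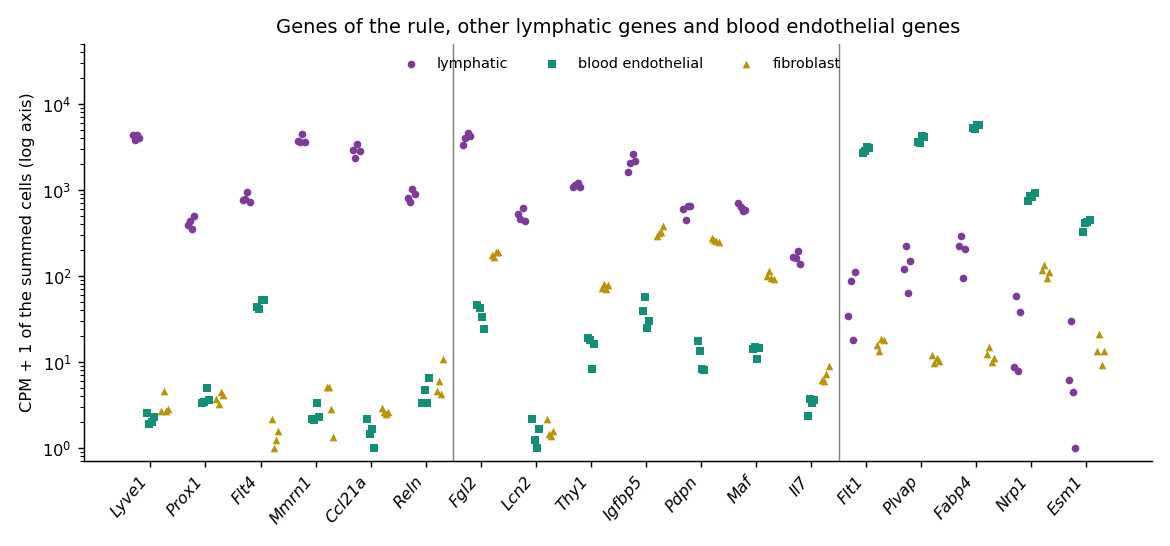
Levels in CPM + 1 on a log axis (vertical) of 18 genes (horizontal) in the summed lymphatic endothelial cells, blood endothelial cells and fibroblasts, with 1 point per library. From left to right stand the 6 lymphatic genes of the rule, other lymphatic genes and genes of blood endothelium. Fgl2 lies at 3360 CPM or higher in the lymphatic cells and at or below 45.6 CPM in blood endothelial cells.

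The members expressed several signals to their surroundings. Interleukin 7 (Il7), which keeps lymphocytes alive, had 163 and 160 CPM in the CCl4 libraries and 193 and 137 CPM in the control libraries, while blood endothelial cells had at most 2.67 CPM. Rspo3 had 58.7 and 54.2 CPM in the CCl4 libraries and 51.7 and 111 CPM in the control libraries. Fibroblasts had Rspo3 at 36.9 to 46.1 CPM and blood endothelial cells at most at 2.89 CPM. The groups overlapped for Il7 and for Rspo3, and the log2 ratios of CCl4 over control were -0.01 (SE 0.30) and -0.49 (SE 0.48). The growth factor genes themselves were low in the members: Vegfc was at 0 to 40.8 CPM, in 6 members, and Vegfd at 0 to 3.19 CPM, in 1. Blood endothelial cells had Vegfc at 58.6 to 73.3 CPM.

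Transcripts of other cell types were found in the sums. In 39 members a count of Col1a1, Col1a2 or Col3a1 was found, 11 and 14 in the CCl4 libraries and 7 and 7 in the control libraries, which is 13.4% and 18.9% of the members in the CCl4 libraries and 10.3% and 12.1% in the control libraries. Blood endothelial cells carried these collagens in 30.3% and 28.2% of the barcodes of the CCl4 libraries and in 17.5% and 19.3% of those of the control libraries. Summed over the members with collagen, the fibroblast gene Dcn stood at 3974 CPM, against 29.6 CPM over the other 243 members. Most of the 39 had no Dcn count, and in CCl4 library 1 a single one held 276 of the 347 counts. Lyve1 was 2703 CPM in the members with collagen and 4448 CPM in those without. Every comparison was run with and without these 39 cells. In the run without them, blood endothelial cells with a collagen count were left out too. This kept 478 and 463 blood endothelial cells in the CCl4 libraries and 503 and 481 in the control libraries. A single member of control library 2 had 53.2% of its counts in plasma cell genes, a single member of CCl4 library 1 had 25.6% in haemoglobin genes, and a single member of control library 1 held 124 of the 206 MHC class II counts and 133 of the 133 Cxcl2 counts of that library. The macrophage markers without Apoe and Mrc1, which lymphatic endothelium also expresses, summed to 28.1 and 47.9 CPM in the CCl4 libraries and to 203 and 44.5 CPM in the control libraries.

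The share of lymphatic endothelial cells overlapped between the groups. They made up 0.742% and 0.710% of the kept barcodes in the CCl4 libraries and 0.789% and 0.661% in the control libraries. The exact Clopper-Pearson 95% intervals, which cover counting error only, ran from 0.591% to 0.921% and from 0.558% to 0.891% in the CCl4 libraries, and from 0.613% to 0.999% and from 0.503% to 0.854% in the control libraries. The mean share was 0.726% ± 0.0226 in CCl4 and 0.725% ± 0.0902 in control (SD, n = 2 each; two-sided exact permutation p = 1). The smallest p that 2 against 2 libraries can give is 0.333. With each barcode thinned to 1000 counts, the share was 0.507% and 0.499% in the CCl4 libraries and 0.487% and 0.456% in the control libraries, which did not overlap (two-sided exact permutation p = 0.333).

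Of all endothelial barcodes, lymphatic and blood, the members made up 10.7% and 10.3% in the CCl4 libraries and 10.03% and 8.87% in the control libraries (means 10.5% ± 0.272 and 9.45% ± 0.821, SD, n = 2 each; exact permutation p = 0.333). The CCl4 libraries stood above the control libraries, and the intervals of all 4 overlapped. When every barcode was thinned to 1000 counts before the rules were applied, these shares were 13.4% and 13.3% in the CCl4 libraries and 9.86% and 9.41% in the control libraries (exact permutation p = 0.333). Thinning took blood endothelial cells from 686 and 645 to 363 and 339 in the CCl4 libraries, and from 610 and 596 to 384 and 385 in the control libraries. The members went from 82 and 74 to 56 and 52 in the CCl4 libraries, and from 68 and 58 to 42 and 40 in the control libraries. Blood endothelial cells were deeper in the CCl4 libraries, with a median of 5650 and 5302 counts, against 3761 and 3948 counts in the control libraries. How far this depth bears on the thinned share was not tested.

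Between CCl4 and control, 1 of 5222 genes tested in the members passed an adjusted p of 0.05 (0.0191% of those tested; edgeR's quasi-likelihood test on the summed counts). At an unadjusted p under 0.05, 336 genes stood apart (6.43%), of which 187 were higher (3.58%) and 149 lower (2.85%). Without the 39 cells with collagen, 0 of 4358 genes passed (260 at an unadjusted p under 0.05), and DESeq2 called 1 gene over all members. Without the members in which another cell type's markers made up at least 1% of the counts, an alternative added after the data were seen, 3 of 4744 passed (0.0632%): Gm26917 and Gm42418 rose, and Igha fell. Single genes below are therefore given as values, and "higher" or "lower" beside an adjusted p above 0.05 names the sign only.

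The called gene was Gm26917, which GENCODE M21 annotates as a long noncoding RNA gene (GRCm38, chromosome 17, 39843013 to 39846341, plus strand). Which transcripts the counts of Gm26917 come from was not tested. It had 2858 and 1917 CPM in the CCl4 libraries and 930 and 423 CPM in the control libraries. The groups did not overlap, and the log2 ratio was 1.85 (SE 0.28, adjusted p = 0.033). Its counts lay in 232 of the 282 members, and the highest of them held 9.98%. Over all kept barcodes the gene was at 7521 and 6884 CPM in the CCl4 libraries and at 5393 and 5796 CPM in the control libraries. It also rose in blood endothelial cells (log2 ratio 0.89, adjusted p = 4.8e-04), at 1510 and 1374 CPM in the CCl4 libraries and 804 and 767 CPM in the control libraries. The next gene downstream, Gm42418 (39846958 to 39848788, plus strand), had 5950 and 4355 CPM in the CCl4 libraries and 2491 and 3104 CPM in the control libraries, with a log2 ratio of 0.91 (SE 0.18, adjusted p = 0.077). Gm42418 was the 1 gene that DESeq2 called (adjusted p = 0.0023). It overlaps AY036118 on the other strand, and without a stated use of strand their reads cannot be told apart. Gm26917 kept its direction in every alternative run. Its call was lost without the collagen cells (1.89, adjusted p = 0.23), with stricter cell limits (1.65, adjusted p = 0.32), without the highest doublet scores (1.70, adjusted p = 0.13) and in DESeq2 (1.84, adjusted p = 0.50).

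**Figure D3:**
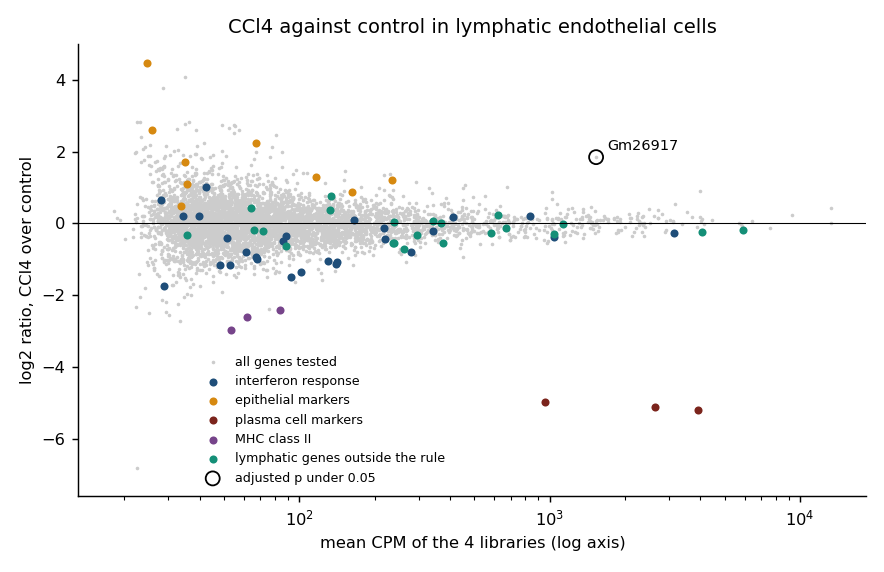
Log2 ratio of CCl4 over control (vertical axis) against mean CPM on a log axis (horizontal) for the 5222 genes tested in the members, with 5 gene lists in colour. Gm26917 is the gene past the adjusted threshold; the size of the 3 plasma cell genes near -5 rests on 1 member of control library 2.

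Interferon response genes were lower in the CCl4 libraries without any of them passing the test. Of 39 genes on the list, 27 had enough counts to be tested; 20 had a negative log2 ratio and 7 a positive one. The median log2 ratio was -0.43, against 0.0086 over all genes tested. At an unadjusted p under 0.05, 9 were lower and 0 higher, beside 2.85% and 3.58% of all genes tested, and in 14 of the 27 both CCl4 libraries were below both control libraries, beside 19.2% of all genes tested. The median was -0.68 without the collagen cells and -0.73 without the members that held other markers. The latter run still kept a member of control library 2 with 427 counts of the list. Its 161 counts of mural and muscle markers were 0.821% of its counts, below the limit of 1%.

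Iigp1, an interferon-inducible GTPase, had 81.6 and 92.5 CPM in the CCl4 libraries and 152 and 237 CPM in the control libraries (log2 ratio -1.13, SE 0.34, adjusted p = 0.35). Gbp7, a guanylate-binding protein, had 61.2 and 51.0 CPM in the CCl4 libraries and 93.0 and 200 CPM in the control libraries (log2 ratio -1.34, SE 0.42, adjusted p = 0.46). Neither gene overlapped between the groups, and they came from 66 and 46 members, with no member holding over 12.4% of the counts. Further genes of the list at an unadjusted p under 0.05, named after their values were seen, were Bst2, Gbp2, Isg15, Ifit1, Gbp3 and Ifi35, with log2 ratios between -1.75 (Ifit1, at 12.8 and 12.8 CPM in the CCl4 libraries and 44.8 and 44.5 CPM in the control libraries) and -0.79 (Bst2, at 232 and 172 CPM in the CCl4 libraries and 369 and 345 CPM in the control libraries). One member of control library 1 held 33.9% of the Isg15 counts. Ly6e and Ifitm3, also on the list, had log2 ratios of -0.39 (SE 0.21) and -0.26 (SE 0.16).

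In blood endothelial cells of the same libraries, 3 genes of the list fell and 0 rose, beside 0.269% and 0.577% of all 12647 genes tested there. Iigp1 had 532 and 453 CPM in blood endothelial cells of the CCl4 libraries and 618 and 603 CPM in those of the control libraries (log2 ratio -0.29, adjusted p = 0.31). The difference between the response of the members and that of blood endothelial cells was -0.86 for Iigp1 (SE 0.30, adjusted p = 0.63), so the data do not show that it differed. Over all kept barcodes Iigp1 was at 56.4 and 51.7 CPM in the CCl4 libraries and at 61.9 and 63.2 CPM in the control libraries. Summed over the 39 genes, the members had 7662 and 6712 CPM in the CCl4 libraries and 8970 and 9283 CPM in the control libraries. A single member of control library 2 held 427 of the 2503 counts there. Leaving out the highest cell of each library, the sum was 7655 and 6318 CPM, against 8809 and 8303 CPM. The same sum was also lower in the CCl4 libraries in blood endothelial cells (18532 and 17621, against 20498 and 18736 CPM). Over all kept barcodes it was 3794 and 3724 CPM, against 4482.5 and 4337 CPM.

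Genes of MHC class I presentation, which interferons also raise, had ratios closer to 0. Of 17 tested, 0 passed, and the median log2 ratio was -0.10. At an unadjusted p under 0.05, 2 were lower and 0 higher, beside 2.85% and 3.58% of all genes tested. H2-K1, a class I heavy chain, had 834 and 778 CPM in the CCl4 libraries and 1137 and 1179 CPM in the control libraries (log2 ratio -0.50, SE 0.19, adjusted p = 0.61). H2-Q7 had 79.1 and 51.0 CPM in the CCl4 libraries and 141 and 108 CPM in the control libraries (log2 ratio -0.89, SE 0.39, adjusted p = 0.77); class I genes are close copies of each other, so reads may have been split among them. The shared light chain B2m had 2478 and 2106 CPM in the CCl4 libraries and 2578 and 2429 CPM in the control libraries (log2 ratio -0.10, SE 0.16).

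MHC class II genes were among the lowest ratios, at few counts. H2-Ab1 had 20.4 and 31.9 CPM in the CCl4 libraries and 214 and 70.5 CPM in the control libraries (log2 ratio -2.43, SE 0.54, adjusted p = 0.12). H2-Eb1 had 17.9 and 16.0 CPM in the CCl4 libraries and 131 and 81.6 CPM in the control libraries (log2 ratio -2.60, SE 0.54, adjusted p = 0.094), and H2-Aa had 5.10 and 19.1 CPM in the CCl4 libraries and 148.2 and 40.8 CPM in the control libraries (log2 ratio -2.97, SE 0.73, adjusted p = 0.17). These 3 were the members of the 8-gene list with enough counts to be tested. The list summed to 27 and 24 counts in the CCl4 libraries and 206 and 65 counts in the control libraries, and 1 member held 124 of the 206. Leaving out the highest cell of each library, it was at 64.7 and 67.5 CPM in the CCl4 libraries and 290 and 164 CPM in the control libraries. The member with 124 class II counts also held 103 counts of macrophage markers, Apoe included; the part of such cells in the result was not tested. H2-Ab1 fell in blood endothelial cells (log2 ratio -1.35, adjusted p = 9.6e-04).

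Transcripts of goblet cells, the mucus-secreting cells of the epithelium, were higher in the members of both CCl4 libraries. That no member carried Epcam was set by the rule. Muc2, the main gel-forming mucin of the colon, had 81.6 and 140 CPM in the CCl4 libraries and 13.8 and 33.4 CPM in the control libraries (log2 ratio 2.24, SE 0.54, adjusted p = 0.16). Agr2, a disulfide isomerase needed for mucin folding, had 91.9 and 105 CPM in the CCl4 libraries and 17.2 and 14.8 CPM in the control libraries (log2 ratio 2.61, SE 0.54, adjusted p = 0.094). Oit1 had 130 and 144 CPM in the CCl4 libraries and 20.7 and 29.7 CPM in the control libraries, and with a log2 ratio of 2.45 (SE 0.45, adjusted p = 0.067) it had the smallest p among the uncalled genes named here that were higher. Its counts lay in 29 and 25 members of the CCl4 libraries and in 4 and 5 members of the control libraries, with at most 5 counts in a member. Spink4 had a log2 ratio of 2.66 (SE 0.58, adjusted p = 0.11). Zg16, a goblet cell lectin, had 21 and 13 counts in the CCl4 libraries and 0 and 1 count in the control libraries.

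Of 13 epithelial markers on the list, 9 were tested and all 9 had a positive log2 ratio; 0 passed, and 7 were higher at an unadjusted p under 0.05, beside 3.58% of all genes tested. The 13 markers summed to 1169 and 1075 CPM in the members of the CCl4 libraries and to 551 and 401 CPM in those of the control libraries. The same sum was 621 and 694 CPM in blood endothelial cells of the CCl4 libraries and 427 and 410 CPM in those of the control libraries, and 11290 and 11747 CPM over all kept barcodes of the CCl4 libraries, against 9210 and 8641 CPM in the control libraries. In blood endothelial cells 4 of the list rose and 0 fell, beside 0.577% and 0.269% of all genes tested there. Muc2 rose by 1.18 (adjusted p = 7.7e-04). Oit1, which is not on the list, rose in blood endothelial cells by 1.34 (adjusted p = 7.7e-04), and over all kept barcodes it was at 1216 and 1092 CPM in the CCl4 libraries and 617 and 601 CPM in the control libraries. Whether free transcripts of the epithelium in the droplets account for these counts was not tested.

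**Figure D4:**
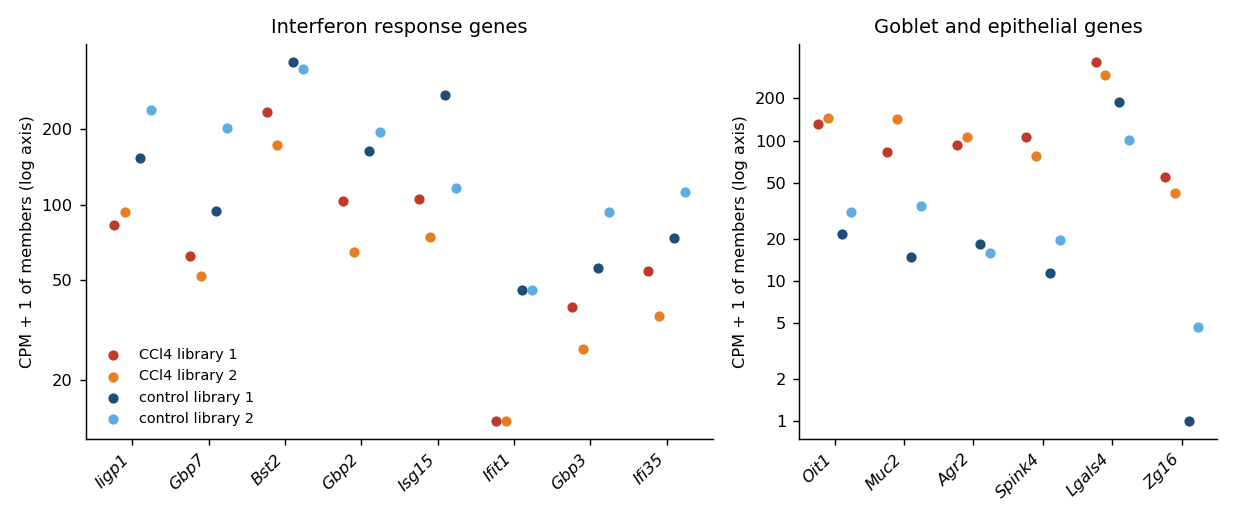
Levels in CPM + 1 on log axes (vertical) of 8 interferon response genes at an unadjusted p under 0.05 (left) and of 6 goblet and epithelial genes (right) in the members, with 1 point per library. The CCl4 points lie below the control points in each gene on the left and above them in each gene on the right.

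Immunoglobulin genes had the smallest p among the named genes that were lower, and the size of their ratios rested on 1 cell. Igha had 237 and 172 CPM in the CCl4 libraries and 538 and 14765 CPM in the control libraries (log2 ratio -5.20, SE 0.89, adjusted p = 0.062). A single member of control library 2 held 3758 of its 3981 counts in that library. Without the members that held other markers, Igha fell (log2 ratio -1.76, adjusted p = 6.6e-04), while Igkc (-1.07, adjusted p = 0.22) and Jchain (-0.88, adjusted p = 0.89) did not pass. Over all kept barcodes the plasma cell genes summed to 30280 and 27946 CPM in the CCl4 libraries and to 97477 and 92801 CPM in the control libraries. The part of free transcripts of plasma cells in the members' Igha was not tested.

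Dcn and, in the CCl4 libraries, Sparc and the muscle genes were carried mostly by the members with collagen. Of the counts of mural and muscle markers, 18 of 396 and 25 of 243 lay in members without collagen in the CCl4 libraries. In the control libraries these were 35 of 97 and 172 of 198. A single member without collagen in control library 2 held 161 of the 172, and 37 of the 83 Sparc counts there. Dcn, a proteoglycan of fibroblasts, had 903 and 896 CPM in the CCl4 libraries and 469 and 445 CPM in the control libraries (log2 ratio 1.002, SE 0.19, adjusted p = 0.077), and 1 member of CCl4 library 1 held 276 of the 354 counts there. Col1a2 had a log2 ratio of 1.37 (SE 0.29, adjusted p = 0.094) and Col3a1 of 1.16 (SE 0.26, adjusted p = 0.12). Sparc, a matrix glycoprotein, had 620 and 619 CPM in the CCl4 libraries and 296 and 308 CPM in the control libraries (log2 ratio 1.06, SE 0.21, adjusted p = 0.077). Without the collagen cells Sparc turned to -0.37 (adjusted p = 0.99). The smooth muscle gene Acta2 (log2 ratio 1.35, SE 0.28, adjusted p = 0.094) came from 21 members and turned to -2.13 without the collagen cells (adjusted p = 0.80). Lmod1, another smooth muscle gene, had 23 and 23 counts in the CCl4 libraries and 0 and 2 counts in the control libraries, in 5 members. Igfbp7, which was found in 123 members, had a log2 ratio of 0.77 (SE 0.22, adjusted p = 0.33), and 0.22 without the members that held other markers. The fibroblast markers summed to 2633 and 2128 CPM in the members of the CCl4 libraries and to 1471 and 1090 CPM in those of the control libraries.

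**Figure D5:**
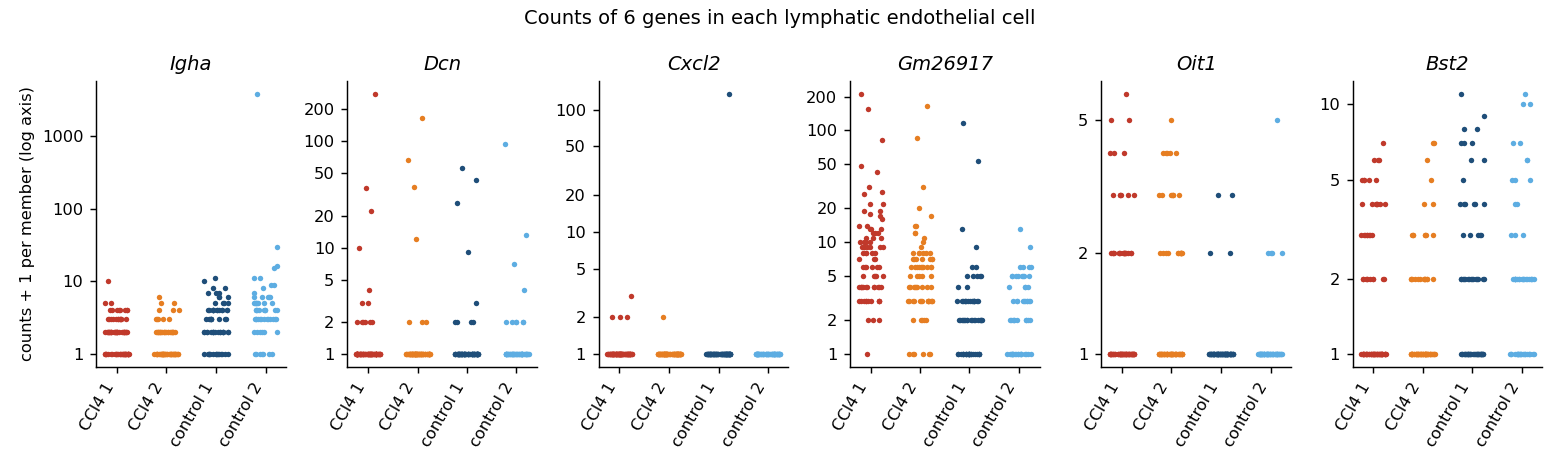
Counts + 1 of 6 genes in each member on log axes (vertical), by library (horizontal), with 1 point per cell. The highest member holds 3758 counts of Igha, 276 of Dcn and 133 of Cxcl2; Igha has low counts in many other members of each library.

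None of the lymphatic identity genes outside the rule passed the test. Of 25 listed, 22 were tested, 15 had a negative and 7 a positive log2 ratio, and the median was -0.21, or -0.06 without the collagen cells. In 11 of the 22 both CCl4 libraries were below both control libraries, beside 19.2% of all genes tested, and in 3 they were above, beside 17% of all genes tested. Nts had 219 and 175 CPM in the CCl4 libraries and 386 and 271 CPM in the control libraries (log2 ratio -0.70, SE 0.26, adjusted p = 0.61), and 2 members of control library 1 held 36 and 34 of its 112 counts there. Ackr2, a scavenger receptor for inflammatory chemokines, had 156 and 179 CPM in the CCl4 libraries and 89.6 and 111 CPM in the control libraries (log2 ratio 0.76, SE 0.32, adjusted p = 0.74). The groups did not overlap in Ackr2; in Nts they did not overlap with those 2 cells included. Klhl4 had a log2 ratio of -0.54 (SE 0.25) and Sox18, a transcription factor upstream of Prox1, of -0.54 (SE 0.27). Sox18 fell in blood endothelial cells (log2 ratio -0.86, adjusted p = 6.0e-04).

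Among receptors and signals for lymphatic growth, 14 of 22 genes were tested, 0 passed, and the median log2 ratio was -0.09. Nrp2, the co-receptor of Flt4, had 393 and 207 CPM in the CCl4 libraries and 486 and 412 CPM in the control libraries (log2 ratio -0.54, SE 0.27, adjusted p = 0.79). Ramp2, which makes the adrenomedullin receptor together with Calcrl, had 362 and 373 CPM in the CCl4 libraries and 486 and 464 CPM in the control libraries (log2 ratio -0.34, SE 0.21, adjusted p = 0.84). Of 21 valve and collecting vessel genes, 14 were tested and 0 passed, with a median of -0.12. Klf4, a flow-responsive factor, had a log2 ratio of -0.34 (SE 0.20).

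Among the signals to the crypt and stroma, 7 of 21 genes were tested and 0 passed, with a median log2 ratio of 0.47. Tgfb1 had 81.6 and 76.6 CPM in the CCl4 libraries and 27.6 and 40.8 CPM in the control libraries (log2 ratio 1.23, SE 0.50, adjusted p = 0.71). Tgfb2 had 166 and 150 CPM in the CCl4 libraries and 224 and 241.1 CPM in the control libraries (log2 ratio -0.53, SE 0.27, adjusted p = 0.79). Neither gene overlapped between the groups. The alarmin Il33 had 94.4 and 70.2 CPM in the CCl4 libraries and 72.4 and 26.0 CPM in the control libraries, which overlapped (log2 ratio 0.76, SE 0.51).

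Of the genes that guide leukocytes, 17 of 36 in the files were tested and 0 passed, with a median log2 ratio of -0.17. Ccl2, which attracts monocytes, had 61.2 and 73.4 CPM in the CCl4 libraries and 224 and 130 CPM in the control libraries (log2 ratio -1.37, SE 0.37, adjusted p = 0.24). Its neighbour in function, Ccl7, had 22.96 and 54.2 CPM in the CCl4 libraries and 103 and 55.6 CPM in the control libraries (log2 ratio -1.05, SE 0.54, adjusted p = 0.79). Among 18 tested genes of the NF-kB and inflammatory list, the cytokine receptor chain Il6st had 424 and 412 CPM in the CCl4 libraries and 600 and 664 CPM in the control libraries (log2 ratio -0.57, SE 0.20, adjusted p = 0.53). The median of that list was -0.02.

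The remaining lists gave no called gene. Of 13 genes of endoplasmic reticulum stress and the ATF4 response that were tested, 11 had a negative log2 ratio (median -0.31). Creld2 had 12.8 and 16.0 CPM in the CCl4 libraries and 51.7 and 66.8 CPM in the control libraries (log2 ratio -2.00, SE 0.65, adjusted p = 0.50). The chaperone Hsp90b1 had 1018 and 855 CPM in the CCl4 libraries and 1368 and 1354 CPM in the control libraries (log2 ratio -0.51, SE 0.19, adjusted p = 0.57), and -0.29 without the members that held other markers. Of 32 nuclear genes of oxidative phosphorylation, 24 had a positive ratio (median 0.17), led by the ATP synthase subunit Atp5a1 at 485 and 450 CPM in the CCl4 libraries and 345 and 297 CPM in the control libraries (log2 ratio 0.57, SE 0.22, adjusted p = 0.62). The mitochondrial share of counts was higher in the CCl4 libraries, as given above; its part in this was not tested. Of 25 lymphatic and endothelial transcription factors, 20 had a negative ratio (median -0.22, and -0.06 without the collagen cells), with Foxo1, a factor of vessel quiescence, at -0.56 (SE 0.27) and Tcf4 at -0.41 (SE 0.22). Of 25 tested genes of xenobiotic and antioxidant defence, the flavin monooxygenase Fmo1 had 107 and 108 CPM in the CCl4 libraries and 37.9 and 70.5 CPM in the control libraries (log2 ratio 1.02, SE 0.43, adjusted p = 0.74), and the efflux pump Abcg2 had a log2 ratio of 0.56 (SE 0.27, adjusted p = 0.78). Of 14 tested genes of lipid handling (median -0.10), Apoe, an apolipoprotein, had 58.7 and 63.8 CPM in the CCl4 libraries and 307 and 63.1 CPM in the control libraries (log2 ratio -1.57, SE 0.52, adjusted p = 0.51), and 1 member of control library 1 held 37.6% of its counts. Angptl4 (-1.58, SE 0.68) and Fabp4 (0.78, SE 0.34) had an adjusted p of 0.74. The early stress gene Ier3 had a log2 ratio of 0.47 (SE 0.19, adjusted p = 0.74), the mitochondrial chaperone Hspe1 of 0.48 (SE 0.20, adjusted p = 0.74) and the receptor Notch1 of -0.53 (SE 0.25, adjusted p = 0.77). The medians of the lists for junctions, matrix, immediate early genes, heat shock, glycolysis, the circadian clock, the cell cycle, Notch, BMP and TGF-beta signalling and xenobiotic defence lay between -0.105 and 0.14. For vascular tone and coagulation the median was -0.24.

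Outside the lists, Kctd17 and Bmx were lower in both CCl4 libraries and spread over many members. Kctd17 had 186 and 150 CPM in the CCl4 libraries and 407 and 323 CPM in the control libraries (log2 ratio -1.08, SE 0.26, adjusted p = 0.15). The cytoplasmic kinase Bmx had 40.8 and 51.0 CPM in the CCl4 libraries and 162 and 130 CPM in the control libraries (log2 ratio -1.64, SE 0.39, adjusted p = 0.15). In blood endothelial cells their log2 ratios were -0.22 and -0.19, and neither passed.

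The last comparison asked whether the response to CCl4 differed between lymphatic and blood endothelial cells. Blood endothelial cells themselves had 107 called genes of 12647 (0.846%), 73 higher and 34 lower, in sums of 3030551 to 5132744 counts per library. In the test of the difference, 9 of 12062 genes passed (0.0746%), 4 of them higher (0.0332%) and 5 lower (0.0415%). Igfbp5, which binds insulin-like growth factors, had 1636 and 2083 CPM in the members of the CCl4 libraries and 2646 and 2185 CPM in those of the control libraries. In blood endothelial cells it had 37.8 and 56.1 CPM in the CCl4 libraries and 24.1 and 28.9 CPM in the control libraries. The difference of the log2 ratios was -1.21 (SE 0.22, adjusted p = 0.0060). Fgl2 had 45.6 and 41.2 CPM in blood endothelial cells of the CCl4 libraries and 32.7 and 23.4 CPM in those of the control libraries, beside the levels in the members given above, and its difference was -0.93 (SE 0.20, adjusted p = 0.037). Within each cell type neither gene passed between CCl4 and control: the log2 ratio of Igfbp5 was -0.35 in the members (adjusted p = 0.79) and 0.83 in blood endothelial cells (adjusted p = 0.076), and that of Fgl2 was -0.23 (adjusted p = 0.85) and 0.65 (adjusted p = 0.18). Fibroblasts held Igfbp5 at 293 to 384 CPM and Fgl2 at 167 to 190 CPM, and more blood endothelial barcodes of the CCl4 libraries carried a collagen count, as given above. Without the collagen cells the difference was -1.79 for Igfbp5 (SE 0.35, adjusted p = 0.092) and -0.46 for Fgl2 (SE 0.29, adjusted p = 1), so neither passed. The noncoding RNA gene Gm26870 had 2248 and 5280 CPM in the members of the CCl4 libraries and 1527 and 3657 CPM in those of the control libraries. In blood endothelial cells it had 1131 and 1611 CPM in the CCl4 libraries and 1137 and 2692 CPM in the control libraries, so that the libraries numbered 2 were the higher ones in both groups (difference 0.89, adjusted p = 0.034). The difference of Sparc (0.89, adjusted p = 0.037) reversed to -0.22 without the collagen cells. Other calls rested on few counts in the members: Tcim had 14 and 10 counts in the CCl4 libraries and 0 and 0 in the control libraries. This is at least 6.35-fold higher over the group against a floor of 3 counts. The 24 counts lay in 11 members, while blood endothelial cells had Tcim at 290 to 322 CPM (log2 ratio -0.02). Pltp had 18 and 10 counts in the CCl4 libraries and 2 and 2 in the control libraries. Blood endothelial cells had Pltp at 431 to 551 CPM and fibroblasts at 244 to 315 CPM. Sema3g had 0 and 1 count in the CCl4 libraries and 6 and 39 in the control libraries, each from 1 cell. The pericyte gene Rgs5 had 31 and 18 counts in the CCl4 libraries and 10 and 82 in the control libraries, 78 of the 82 in 1 cell, while it rose in blood endothelial cells (log2 ratio 1.33, adjusted p = 7.7e-04). Of the 7 mural and muscle markers, 5 rose and 0 fell in blood endothelial cells, beside 0.577% and 0.269% of all genes tested there. Their sum in these cells was 2486 and 2380 CPM in the CCl4 libraries and 756 and 1408 CPM in the control libraries. The part of mural cell transcripts in the rise of Rgs5 was not tested. Iglc1 was called through 11592 counts in blood endothelial cells of CCl4 library 1, against 17 to 50 counts in those of the other 3 libraries. DESeq2 called 0 of the 12062 genes (237 at an unadjusted p under 0.05), and a fit without the library block also called 0 (1026 at an unadjusted p under 0.05).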

How the data were processed

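Droplet single-cell RNA sequencing of colon cells gave 4 libraries, 2 from CCl4 mice and 2 from control mice. The deposited files hold raw counts per gene and barcode, and per the file headers the authors wrote them with PISA v0.12b. The submitters' processing notes name the build GRCm38. How the reads were aligned is not stated in the labels or headers. Doublets were not removed; Scrublet in scanpy 1.11.5 scored them for an alternative. Counts of the cells were summed per library, and levels are given as CPM, counts per 1000000 counts of that sum. Summed counts were compared with edgeR 4.0.16 in R 4.3.3 (TMM, filterByExpr, quasi-likelihood test, Benjamini-Hochberg adjustment over all genes tested, threshold 0.05). The difference in response between lymphatic and blood endothelial cells was the cell type by treatment term with library as a block. Shares were compared with exact permutation tests. DESeq2 1.42.0 was an alternative; its adjusted p of NA was kept as NA. The main edgeR fits, in the members and for the difference, were tried on simulated counts with known changes. The DESeq2 and block alternatives were not. Positions are from GENCODE M21.

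The members and the 30 gene lists were chosen with earlier results of these data known. Named genes were the called genes, the 8 uncalled genes with the smallest p in each direction with at least 50 CPM in 1 group, and the 3 genes with the smallest p of each list, leaving out Gm and Rik genes; Gm26917 and Gm42418 are given because they are the calls. Other genes named from a list were chosen after their values were seen. For the identity, the 20 genes with the highest ratio to blood endothelial cells were named. Intervals cover counting error only. Lists of marker genes of other cell types were summed in every library. Where members with collagen or with other markers were left out, blood endothelial cells with them were left out too. Replicate numbers were not treated as pairs. Some genes of the lists are not reported here by name.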

Additional observations from a re-analysis of the deposited data

Results flagged for a closer look

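A test of the difference found 9 genes whose response to CCl4 differed between lymphatic and blood endothelial cells (edgeR's quasi-likelihood test, adjusted p under 0.05). The differences of the log2 ratios are those of lymphatic minus blood endothelial cells. They were positive for Tcim (9.15, adjusted p = 0.0030), Pltp (2.64, adjusted p = 0.046), Gm26870 (0.89, adjusted p = 0.034) and Sparc (0.89, adjusted p = 0.037). They were negative for Iglc1 (-7.85, adjusted p = 4.0e-08), Sema3g (-5.66, adjusted p = 8.8e-04), Rgs5 (-2.35, adjusted p = 8.8e-04), Igfbp5 (-1.21, adjusted p = 0.0060) and Fgl2 (-0.93, adjusted p = 0.037). The fitted value of Tcim depends on the prior count, since both control libraries were at 0 in the lymphatic cells, and is no measure of size. Sema3g, Rgs5 and Iglc1 rest on 1 cell or 1 library. Leaving out the collagen cells turned the sign of Sparc. DESeq2, the replicate block and the fit without the library block each called 0 of the differences (237, 914 and 1026 at an unadjusted p under 0.05). Without the collagen cells 2 genes were called over all genes tested. Of the 9 genes above, only Iglc1 was still called in that run (adjusted p = 4.4e-05).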

How the results depend on the processing

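The number of genes called between CCl4 and control in the lymphatic cells was 1, and it was 0 without the collagen cells (260 at an unadjusted p under 0.05), 0 with stricter cell limits (307), 0 without the highest doublet scores (289), 7 with at least 4 lymphatic genes, 6 when thinned to 1000 counts, 3 without the members that held other markers and 70 with no filter on low counts; RLE size factors and DESeq2 each gave 1. Leaving out 1 library gave 17 to 73 calls (55 without CCl4 1, 17 without CCl4 2, 48 without control 1 and 73 without control 2), where the lone library is assumed to vary like the other group. The replicate block gave 61 calls (44 higher, 17 lower); deviations of same-numbered libraries correlated at 0.0685 over 5222 genes, with 2 pairs, and the labels do not say what a number marks. For the difference from blood endothelial cells, 9 calls became 2 without the collagen cells, 15 with stricter limits, 18 with at least 4 lymphatic genes, 4 without the highest doublet scores, 2 when thinned, 14 without the members that held other markers, 22 with no filter, 0 in DESeq2 (237 at an unadjusted p under 0.05), 0 with the replicate block (914) and 0 without the library block (1026), and 14 to 44 with a library left out (14 without CCl4 1, 18 without CCl4 2, 44 without control 1 and 32 without control 2). The log2 ratio of the lymphatic share of kept cells, 0.0027, changed sign to -0.081 without the collagen cells, -0.00076 with at least 4 genes and -0.015 without the members that held other markers, and ranged from -0.12 to 0.14 with a library left out. With stricter cell limits this log2 ratio was 0.22, the highest of the runs. Signs also turned for Sparc (-0.37 without the collagen cells, -0.34 without the members that held other markers; difference -0.22 and -0.42), Acta2 (-2.13 without the collagen cells, -0.11 when thinned), Klhl4 (0.10 when thinned), Il7 (0.23 without the collagen cells, 0.12 with stricter limits, 0.020 when thinned, 0.087 without the members that held other markers, -0.23 to 0.23 with a library left out), Rspo3 (-0.98 to 0.15 with a library left out), B2m (-0.27 to 0.031 with a library left out), Sema3g (difference 4.72 with at least 4 genes) and Rgs5 (difference 0.85 with at least 4 genes). The causes were not tested. Of the other values of single genes, 696 kept direction and side of the threshold, 100 passed it newly and 4 lost it in the lymphatic cells, and of the differences 66 kept them and 64 lost the threshold. With 282 members, few genes had the depth to be tested: 5222 of 29897.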
